A study of Mus musculus with 6 samples.

Results

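The genes of cholesterol and fatty acid synthesis were followed as a group of 30, listed by name for their place in these pathways. Of the 22400 genes with a count in these libraries, 12925 had enough counts to be tested, and all 30 were among them. The group holds 3 regulators of the pathway, 7 enzymes that lead from acetyl-CoA to farnesyl diphosphate, 11 enzymes that turn farnesyl diphosphate into cholesterol, 1 sterol carrier and 8 enzymes of fatty acid synthesis, elongation and desaturation. The RNA came from naive CD4+ T cells of C57BL/6 mice, activated and cultured for 48 h under conditions that favor Th9 cells, the helper subset that makes IL-9. The Cul5 cKO samples (n = 3) came from Cul5fl/flCD4-Cre mice, and the WT samples (n = 3) from mice without the deletion, which the study describes as Cul5fl/fl littermates. Cul5 is the scaffold of a ubiquitin ligase of the cullin-RING family. The CD4 promoter drives Cre from a stage of thymic development that CD4+ and CD8+ T cells share, so the deletion marks both lineages and not Th9 cells alone. The labels give spleen as the source and number the samples 1 to 3 within a genotype, but do not say whether the numbers stand for separate mice or cultures, so the tests measure the spread between these samples, which may be technical. Both genotypes were cultured alike. The comparison asks how far the loss of Cul5 goes with the level of lipid synthesis transcripts on day 2 of culture.

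Cells make cholesterol from acetyl-CoA through mevalonate, farnesyl diphosphate, squalene and lanosterol, and they make fatty acids from the same acetyl-CoA through malonyl-CoA. Both pathways are under the transcription factors SREBP1 and SREBP2, which are held in the endoplasmic reticulum by SCAP and INSIG proteins while sterols are plentiful and are cut free to enter the nucleus when sterols run low. Activated T cells draw on both pathways to build membrane as they divide.

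SREBPs bind sterol regulatory elements in the promoters of their targets, usually beside sites for NF-Y (a CCAAT box) and Sp1 (a GC box). The promoter stretches of a mevalonate enzyme, 2 sterol enzymes and the fatty acid synthase are shown as examples from each branch. Each stretch holds a CCAAT box, the sterol element is in that of Hmgcs1 alone, and GC boxes are not marked. Capitals mark matches to the sterol element TCACNCCAC and to the CCAAT box on either strand, so that ATTGG is a CCAAT box on the opposite strand. The sequences are RefSeq's, GRCm38.p6, read 5′ to 3′ on the strand of the gene.
Hmgcs1, chr13:119690201-119690320, plus strand: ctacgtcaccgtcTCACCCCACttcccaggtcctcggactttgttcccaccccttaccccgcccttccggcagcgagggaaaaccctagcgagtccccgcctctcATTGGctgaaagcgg
Lss, chr10:76531505-76531574, plus strand: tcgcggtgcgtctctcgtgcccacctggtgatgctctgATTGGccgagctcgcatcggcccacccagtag
Ebp, chrX:8193543-8193612, minus strand: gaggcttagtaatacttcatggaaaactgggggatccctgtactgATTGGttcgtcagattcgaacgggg
Fasn, chr11:120824578-120824647, minus strand: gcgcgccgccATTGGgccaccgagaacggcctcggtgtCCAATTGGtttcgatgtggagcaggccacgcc
These stretches lie upstream of the start, outside every exon of the GENCODE annotation. In Hmgcs1 the sterol element began 137 bases before the start and the CCAAT box 45 bases before it.

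Promoter windows of 300 bases (250 before the start and 50 after it) were at hand for 23 of the 30 members, some with several starts, in 28 windows. A CCAAT box (letters CCAAT, either strand) was in 71.4% of these windows, against 37.4% of all 32851 windows. A GC box (GGGCGG, either strand) was in 75% of member windows and 35.7% of all windows. The E-box CACGTG, which SREBP1 can also bind, was in 14.3% of member windows and 7.15% of all. The sterol element in the strict form TCACNCCAC was found in the Hmgcs1 window alone among members, 3.57% of their windows against 1.24% of all. All 32851 windows were used whether or not their genes were expressed here, so whether members differ from other expressed genes was not tested. No motif contains the letters of another, and a match describes a sequence and shows no binding.

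Cul5 itself was measured first, as a check of the labels. WT replicates 1, 2 and 3 held 64.4, 69.3 and 65.03 CPM (counts scaled to the library size after TMM normalization, the unit of every level below unless TPM is named), and Cul5 cKO replicates 1, 2 and 3 held 10.6, 14.2 and 13.1 CPM. Cul5 (ENSMUSG00000032030, chr9:53614582-53670014) was lower in every Cul5 cKO sample, with a log2 fold change of -2.39 (edgeR adjusted p = 0.000992, SE 0.115). The floxed stretch covers internal exons of Cul5, and reads from its other exons are still counted under the gene. Total counts were between 23111689 and 23454552 in 5 of the 6 libraries and 3944803 in WT replicate 3, where 3 counts correspond to 0.759 CPM. In all values that follow, samples are given in the order of replicates 1, 2 and 3, which is only a naming order.

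Every member was expressed in WT cells. Levels can be compared between genes only per length, in TPM, which kallisto scales to transcript length. On that scale the highest WT means were those of Fasn at 225 ± 36.3 TPM, Scd2 at 214 ± 8.40 TPM, Scd1 at 189 ± 54.9 TPM, Srebf2 at 173 ± 35.6 TPM and Fdps at 159 ± 9.47 TPM (SD, n = 3). The SDs of these genes overlapped from one to the next, so their order is not firm. The lowest was Fads2 at 5.34 ± 2.68 TPM, followed by Elovl6 at 15.1 ± 2.05 TPM and Tm7sf2 at 15.4 ± 3.65 TPM. The median member lay at the 79.1th percentile of WT TPM among all genes tested, 26 of 30 lay above the 50th percentile and 7 above the 90th. Fatty acid synthase and the stearoyl-CoA desaturases were thus among the highest members, beside Srebf2 and Fdps, and each step listed had transcripts.

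**Figure D1:**
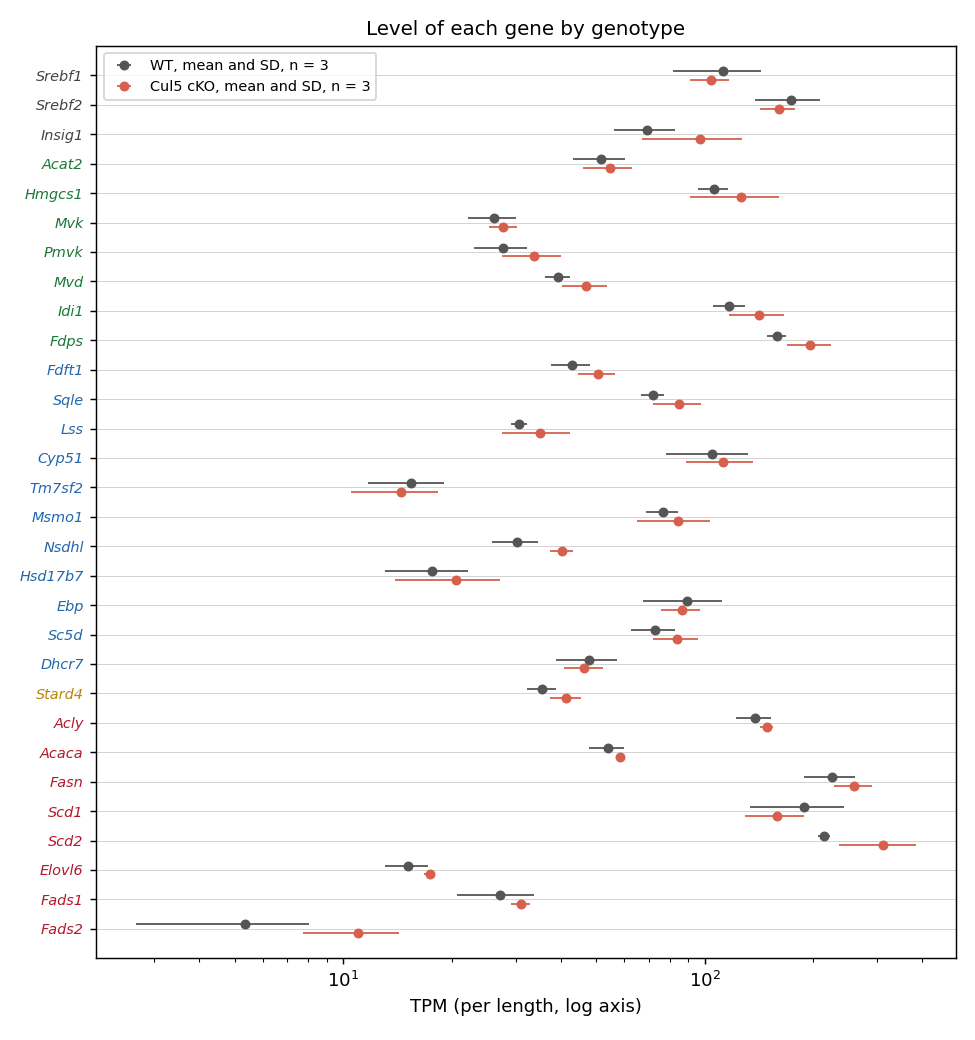
Mean TPM of each member in WT (grey) and Cul5 cKO (red) samples on a log axis, with bars for the SD of 3 samples, and gene names colored by role as in the other plots. Members spread from 5.34 TPM (Fads2) to 225 TPM (Fasn) in WT, and for most of them the bars of the genotypes overlap.

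Between genotypes, member transcripts lay mostly on the higher side in Cul5 cKO cells, by small amounts, and no single member passed the test after adjustment over all genes. The log2 fold change (Cul5 cKO over WT) was above 0 for 29 of 30 members by summed counts, against 48.8% of all genes tested. It was above 0 for 24 of 30 on log2(TPM + 1), against 41.9% of all genes. With counts scaled from TPM it was above 0 for 26 of 30 (47.9% of all genes), and in the authors' gene-level table for 27 of 30 (49.95%). By summed counts its median over the members was 0.27, and over all genes -0.01. With edgeR, 0 members were called at an adjusted p under 0.05 (their adjusted p ran from 0.122 to 0.964), where 133 of all genes (1.03%) were called. At an unadjusted p under 0.05, 13 of 30 members were higher and 0 lower in edgeR, where 10.9% of all genes were higher and 10.4% lower. In 10 of 30 members every Cul5 cKO sample lay above every WT sample, which was so for 13.9% of all genes. For these 10 members the two-sided exact permutation test gave p = 0.1, the smallest that 3 samples against 3 allow. DESeq2 called 2 members, Scd2 and Fads2, both higher (2.79% of all genes were called higher by it), and limma called 0 on the gene-level table and 0 on either TPM scale.

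The count of 13 rested in part on the scale and the fit, and in part on single libraries. With all 6 samples it was 4 of 30 on log2(TPM + 1), where 5.48% of all genes were higher. It was 6 in the gene-level table (7.85% of all genes), 7 with counts scaled from TPM (7.40%) and 10 with library size alone (7.73%). In the other direction, it was 15 with DESeq2 (9.50%) and 19 with the difference of replicate 1 as a term (16.3%). Without Cul5 cKO replicate 3 it was 7 of 30 (6.43% of all genes) and the median log2 fold change 0.15, and without WT replicate 3, the library of lowest depth, it was 4 of 30 (6.55% of all genes) with a median of 0.25. It was 12 without WT replicate 1 (12.2% of all genes), 10 without WT replicate 2 (9.06%), 18 without Cul5 cKO replicate 1 (12.0%) and 14 without Cul5 cKO replicate 2 (7.76%). In bulk RNA, more cells that express a gene and more RNA per cell cannot be told apart.

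**Figure D2:**
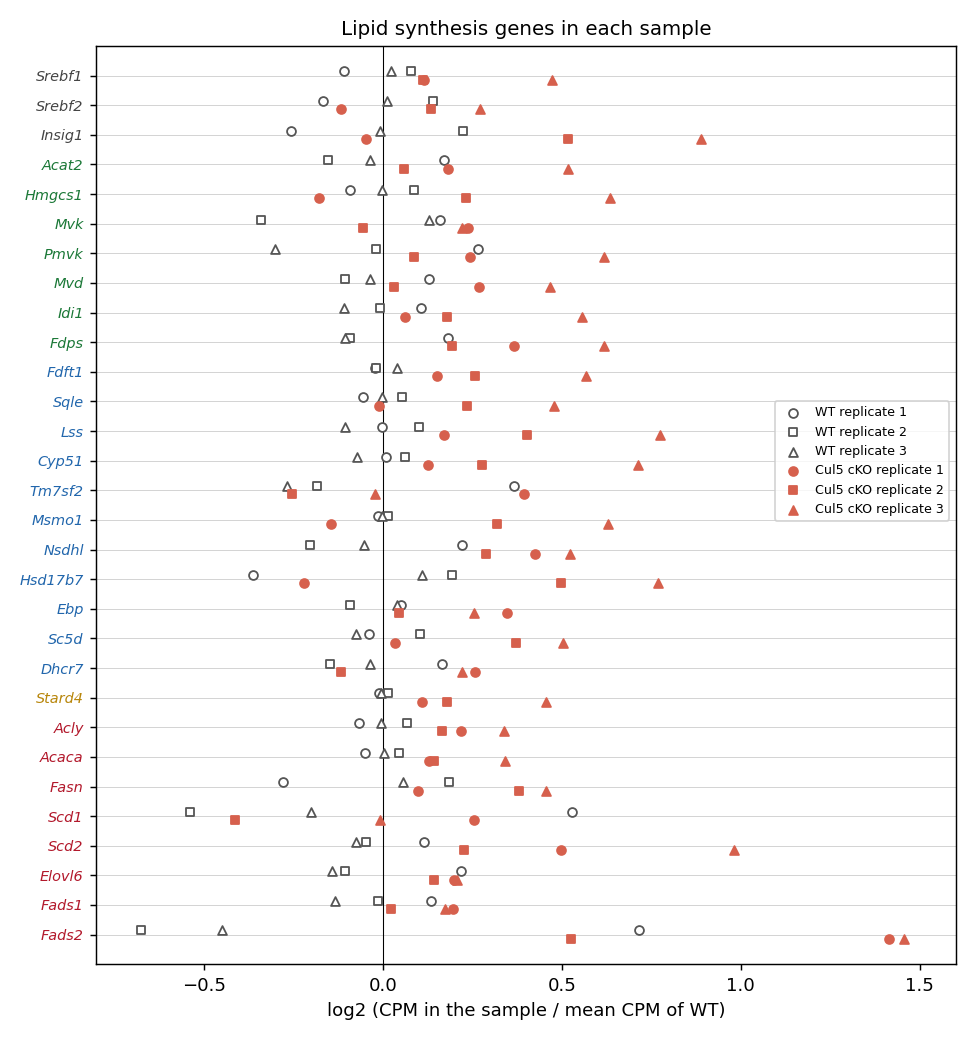
Each member's CPM in the 6 samples as log2 of its ratio to the WT mean, with open grey symbols for WT, filled red symbols for Cul5 cKO, and the shape giving the replicate number. Filled triangles (Cul5 cKO replicate 3) lie farthest right in most lines, 23 of 30 being the highest of all 6 samples, while filled circles (replicate 1) often fall among the WT symbols.

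Of the 3 regulators, none passed the adjusted test. Srebf1 (chr11:60199089-60222581), which encodes SREBP1, the factor tied most to fatty acid genes, stood at 136, 154 and 148 CPM in WT against 158, 158 and 203 CPM in Cul5 cKO. The samples did not overlap, but the nearest of them, WT replicate 2 and Cul5 cKO replicate 2, stood at 154 and 158 CPM. Its log2 fold change was 0.24 (edgeR adjusted p = 0.265, SE 0.113) on summed counts and -0.08 on log2(TPM + 1). With all 6 samples its sign thus depended on the scale. Srebf2, which encodes SREBP2, the factor tied most to sterol genes, measured 391, 484 and 442 CPM in WT against 405, 482 and 530.4 CPM in Cul5 cKO. These ranges overlapped over most of their length, and the log2 fold change of 0.11 (95% interval -0.17 to 0.38) turned to -0.10 on log2(TPM + 1). On that scale without WT replicate 3, an alternative chosen after seeing the data, all 3 regulators were above 0, the lowest at 0.046. Insig1 (chr5:28071363-28078662) is both a brake on SREBP release and a target of SREBP. It stood at 97.6, 136 and 116 CPM in WT against 113, 167 and 216 CPM in Cul5 cKO, where replicate 1 lay within the WT range and replicates 2 and 3 above it. Its log2 fold change was 0.50 (adjusted p = 0.266, SE 0.231).

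The 7 enzymes from acetyl-CoA to farnesyl diphosphate had log2 fold changes from 0.15 to 0.40 with a median of 0.27, and 1 of 7 had an unadjusted edgeR p under 0.05. That gene was Fdps (chr3:89093588-89101959), farnesyl diphosphate synthase, at the branch point toward sterols and protein prenylation. Fdps measured 129, 107 and 106 CPM in WT against 147, 130.2 and 175 CPM in Cul5 cKO, so that the lowest Cul5 cKO sample stood just above the highest WT sample. The means were 114 ± 13.1 and 150.5 ± 22.5 CPM (SD, n = 3), which gave a log2 fold change of 0.40 (adjusted p = 0.147, SE 0.127). Hmgcs1 (chr13:119690379-119708260), HMG-CoA synthase, the gene given as the marker of the group, held 217, 246 and 231 CPM in WT against 204, 272 and 359 CPM in Cul5 cKO. Cul5 cKO replicate 1 was the lowest of all 6 samples and replicate 3 the highest, and the log2 fold change was 0.27 (95% interval -0.16 to 0.70, adjusted p = 0.444). The log2 fold change of Hmgcs1 was 0.045 without Cul5 cKO replicate 3 and 0.45 without Cul5 cKO replicate 1. Acat2, the cytosolic thiolase that joins acetyl-CoA units, showed 71.9, 57.4 and 62.3 CPM in WT against 72.5, 66.5 and 91.3 CPM in Cul5 cKO. The groups overlapped, as they did for the kinases Mvk (19.6 to 29.2 CPM over all samples) and Pmvk (15.7 to 29.7 CPM) and for the decarboxylase Mvd (41.8 to 61.98 CPM). Idi1, the isomerase of isopentenyl diphosphate, lay at 253, 234 and 218 CPM in WT against 245, 266 and 345 CPM in Cul5 cKO, with Cul5 cKO replicate 1 inside the WT range. The log2 fold changes of Acat2, Mvk, Pmvk, Mvd and Idi1 were 0.26, 0.15, 0.30, 0.26 and 0.28, with adjusted p from 0.272 to 0.6096.

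Among the 11 enzymes from squalene synthase to cholesterol, log2 fold changes ran from 0.04 to 0.46 (median 0.31) and 6 of 11 had an unadjusted edgeR p under 0.05, namely Fdft1, Lss, Cyp51, Nsdhl, Ebp and Sc5d. In 4 of these, Fdft1, Lss, Cyp51 and Nsdhl, all Cul5 cKO samples lay above all WT samples. Fdft1 (chr14:63145150-63179578), squalene synthase, which commits farnesyl diphosphate to sterols, stood at 75.6, 75.6 and 78.8 CPM in WT against 85.1, 91.6 and 114 CPM in Cul5 cKO. WT samples differed by little and Cul5 cKO samples spread upward from them, for a log2 fold change of 0.34 (adjusted p = 0.153, SE 0.111). Lss (chr10:76531588-76557138), lanosterol synthase, which closes the sterol rings, measured 64.7, 69.6 and 60.2 CPM in WT against 73.02, 85.6 and 111 CPM in Cul5 cKO. With 0.46 (adjusted p = 0.151, SE 0.1502) it had the highest log2 fold change of the sterol enzymes by summed counts, and 0.19 in the gene-level table. Cyp51 (chr5:4081145-4104746), lanosterol demethylase, held 233, 242 and 221 CPM in WT against 253, 281 and 381 CPM in Cul5 cKO. Its log2 fold change was 0.39 (adjusted p = 0.187, SE 0.145). Nsdhl (chrX:72918557-72958514), a sterol dehydrogenase on the X chromosome, gave 50.8, 37.9 and 42.01 CPM in WT against 58.5, 53.2 and 62.6 CPM in Cul5 cKO. Here the Cul5 cKO samples were close to one another and the WT samples were spread, for a log2 fold change of 0.41 (adjusted p = 0.131, SE 0.121). In the gene-level table the log2 fold changes of Fdft1, Cyp51 and Nsdhl were 0.32, 0.19 and 0.44.

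The other sterol enzymes overlapped between genotypes. Msmo1 (chr8:64718139-64733792), a sterol methyl oxidase, was nearly constant in WT at 79.5, 80.96 and 80.01 CPM, while Cul5 cKO gave 72.5, 100 and 124 CPM, with replicate 1 below every WT sample and replicates 2 and 3 above. Hsd17b7, a keto-sterol reductase, was at 33.6, 49.3 and 46.6 CPM in WT against 37.04, 60.96 and 73.6 CPM in Cul5 cKO. Replicate 1 was the lowest sample of its genotype in both. Sc5d, a sterol desaturase, held 82.3, 90.8 and 80.2 CPM in WT against 86.4, 109 and 119.6 CPM in Cul5 cKO, and Sqle, squalene epoxidase, 131, 141 and 136 CPM against 135, 159.7 and 189 CPM. For Msmo1, Hsd17b7, Sc5d and Sqle the log2 fold changes were 0.30, 0.42, 0.31 and 0.25, and the adjusted p ran from 0.2104 to 0.394. The sterol isomerase Ebp had a log2 fold change of 0.22, Dhcr7, which makes cholesterol in the last step of one branch, of 0.13, and the sterol reductase Tm7sf2 of 0.04 (95% interval -0.49 to 0.57). On log2(TPM + 1) with all 6 samples these became -0.03, -0.04 and -0.09. Without WT replicate 3 on that scale, 10 of 11 sterol enzymes were above 0, all but Tm7sf2 (-0.07). Over all samples Ebp ran from 58.9 to 79.8 CPM, Dhcr7 from 58.8 to 77.8 CPM and Tm7sf2 from 10.1 to 16.03 CPM. Stard4, a carrier that moves sterol between membranes, was at 102, 104 and 102 CPM in WT against 111, 116 and 141 CPM in Cul5 cKO. The Stard4 groups did not overlap, with the WT samples nearly equal, and the log2 fold change was 0.26 (adjusted p = 0.194, SE 0.0972).

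The 8 genes of fatty acid synthesis held the lowest adjusted p, the largest fold change and the only negative one. Their median log2 fold change was 0.23, and 5 of 8 had an unadjusted edgeR p under 0.05, namely Acly, Acaca, Fasn, Scd2 and Fads2. Acly (chr11:100476353-100528000), ATP citrate lyase, which makes the acetyl-CoA that feeds both pathways, stood at 338, 372 and 354 CPM in WT against 412, 398 and 448 CPM in Cul5 cKO. The step was small but the samples were close, with means of 354 ± 16.6 and 419.6 ± 26.1 CPM (SD, n = 3), which gave a log2 fold change of 0.24, the smallest SE of any member (0.0685) and the lowest adjusted p (0.122). Acaca (chr11:84129672-84401651), acetyl-CoA carboxylase, which makes malonyl-CoA, measured 184, 197 and 192 CPM in WT against 209, 211 and 242 CPM in Cul5 cKO. Again no sample crossed, and the log2 fold change was 0.21 (adjusted p = 0.182, SE 0.0756). Fasn (chr11:120805846-120824547), the fatty acid synthase, held 713, 982 and 899 CPM in WT against 926, 1126 and 1186 CPM in Cul5 cKO. Replicate 1 was the lowest of each genotype, and Cul5 cKO replicate 1 lay inside the WT range. The log2 fold change of Fasn was 0.32 (adjusted p = 0.234, SE 0.136). In the gene-level table the log2 fold changes of Acly, Acaca and Fasn were 0.14, 0.14 and 0.18, and those of Scd2 and Fads2 were 0.63 and 1.32. Per length, the SDs of Acly overlapped, at 137.5 ± 15.1 TPM in WT and 148.6 ± 6.50 TPM in Cul5 cKO (SD, n = 3).

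The 4 desaturases lie in pairs on chromosome 19. Scd2 (chr19:44293674-44306864) and Scd1 (chr19:44394455-44407879) both put the first double bond into stearoyl-CoA. Scd2 was at 807, 722 and 707 CPM in WT against 1053, 872 and 1472 CPM in Cul5 cKO, with no overlap and with replicate 3 far above the other Cul5 cKO samples. Its log2 fold change was 0.60 (edgeR adjusted p = 0.1296, SE 0.177, DESeq2 adjusted p = 0.00791), and without Cul5 cKO replicate 3 it was 0.37. Scd1 gave 614, 293 and 371 CPM in WT against 508, 320 and 423 CPM in Cul5 cKO, where the highest sample of each genotype was replicate 1. Its log2 fold change was -0.03 (95% interval -0.69 to 0.62) on all samples and 0.17 on replicates 2 and 3 alone. The sign of Scd1 also turned without WT replicate 1 (0.34), without Cul5 cKO replicate 2 (0.13) and in the gene-level table (0.07). Whether the fold changes of Scd1 and Scd2 differ was not tested. Fads2 (chr19:10062765-10101746) and Fads1 (chr19:10182888-10196877) are the other pair and encode the desaturases of polyunsaturated fatty acid synthesis. Fads2, the lowest member, stood at 17.04, 6.49 and 7.59 CPM in WT against 27.7, 14.9 and 28.5 CPM in Cul5 cKO. WT replicate 1 lay above Cul5 cKO replicate 2, and the WT value of replicate 3 rested on 30 counts. With 1.13 it had the largest log2 fold change of the group and also the largest SE (0.402, edgeR adjusted p = 0.174, DESeq2 adjusted p = 0.0219). Fads1 measured 61.7, 55.6 and 51.1 CPM in WT against 64.2, 57.1 and 63.4 CPM in Cul5 cKO, a log2 fold change of 0.12 (95% interval -0.08 to 0.33). Elovl6, which lengthens palmitate, gave 65.4, 52.3 and 50.9 CPM against 64.5, 62.03 and 64.8 CPM and a log2 fold change of 0.17 (95% interval -0.07 to 0.41).

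**Figure D3:**
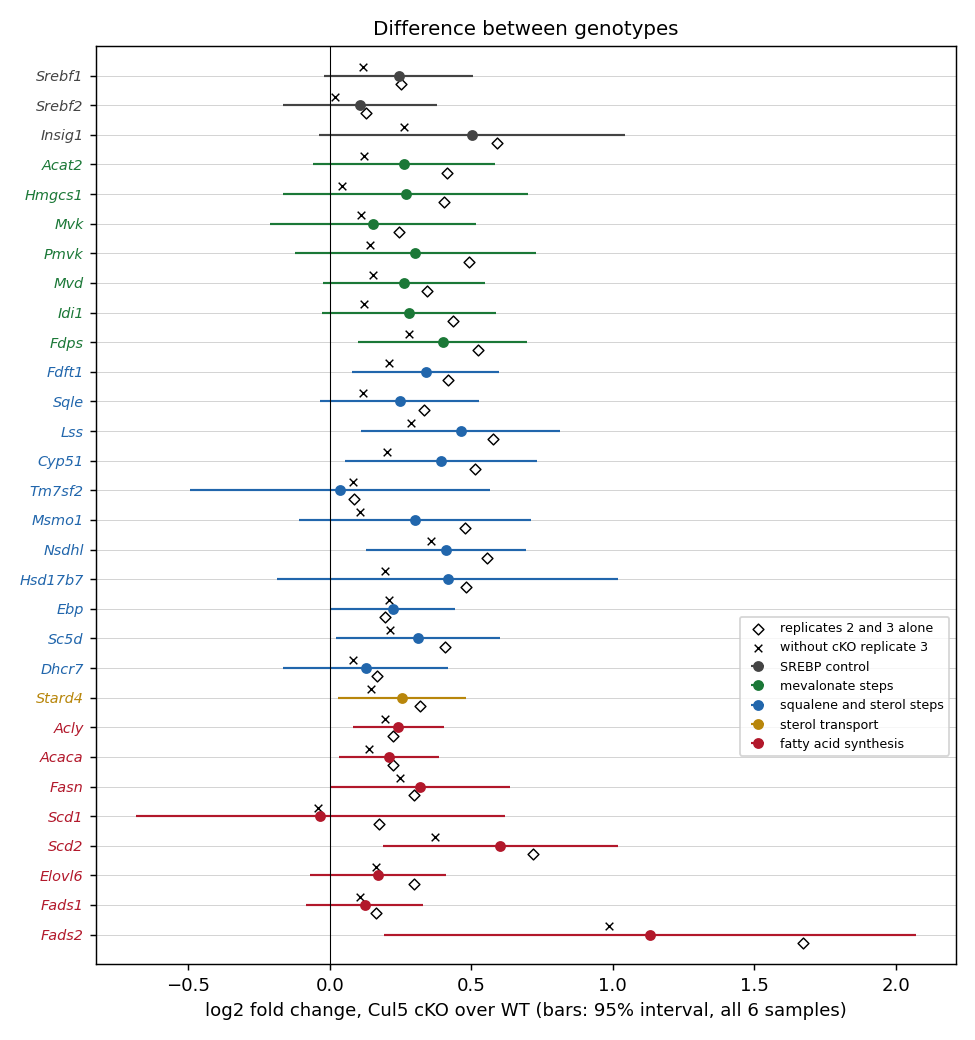
Log2 fold change of each member, Cul5 cKO over WT, from all 6 samples (filled points, bars for the 95% interval), from replicates 2 and 3 alone (diamonds) and without Cul5 cKO replicate 3 (crosses). Points run from -0.03 (Scd1) to 1.13 (Fads2), diamonds lie above 0 for all 30 members, and crosses lie nearer 0 than the points for most. On TPM scales with all 6 samples, Srebf1, Srebf2, Tm7sf2, Ebp and Dhcr7 fall below 0. Of these, only Tm7sf2 stays below 0 on log2(TPM + 1) without WT replicate 3.

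Cul5 cKO replicate 3 held the highest values for most members. It was the highest of all 6 samples in 23 of 30 members and the highest Cul5 cKO sample in 24, and it was the lowest of the 6 in 0. The share of all genes highest in that library was not counted, so whether the members differ from other genes in this was not tested. The summed level of the 30 members was 5202, 5196 and 5026 CPM in WT against 5800, 5885 and 7446 CPM in Cul5 cKO; each Cul5 cKO sample was above each WT sample, and replicate 3 was the farthest above. Within a genotype, the median coefficient of variation over members was 8.95% in WT and 15.8% in Cul5 cKO. B cell transcripts, in all 4 markers given here, were also higher in that library than in the other Cul5 cKO samples. The sum of Cd79a, Cd79b, Ms4a1 and Ighm was 109, 79.1 and 79.6 CPM in WT against 42.1, 33.9 and 100.5 CPM in Cul5 cKO, and Ms4a1 alone 0.342, 0.542 and 0 CPM in WT against 0.0582, 0.439 and 4.16 CPM in Cul5 cKO. Of the CD8 genes, Cd8a was highest in that library, at 1.67, 1.08 and 1.01 CPM in WT against 0.565, 1.71 and 6.27 CPM in Cul5 cKO, whereas Cd8b1 was highest in WT replicate 2, at 4.08, 5.45 and 5.27 CPM against 3.73, 4.66 and 5.39 CPM. The part of these cells in the lipid values was not tested. The T cell genes were present in every sample. Cd4 overlapped between genotypes, at 469.5, 452 and 452 CPM in WT against 456, 440.1 and 459 CPM in Cul5 cKO, as did Cd5 (log2 fold change -0.18, adjusted p = 0.563). Cd3e stood at 145, 157 and 166 CPM in WT against 131, 124 and 114 CPM in Cul5 cKO (log2 fold change -0.34, adjusted p = 0.0987) and Cd3g at 126, 105 and 106 CPM against 89.8, 92.99 and 81.9 CPM (-0.35, adjusted p = 0.112). For both CD3 chains every Cul5 cKO sample lay below every WT sample. Il9, the cytokine that names Th9 cells, was higher in Cul5 cKO (log2 fold change 1.41, adjusted p = 0.0112). The part of these differences in the lipid values was not tested. Fat cell markers (Adipoq, Fabp4, Plin1) summed to at most 0.269 CPM, with Fabp4 at 0 in every sample, NK markers to at most 0.759 CPM with Ncr1 at 0, and red cell markers to at most 1.31 CPM. Myeloid markers summed to 4.02, 8.13 and 6.63 CPM in WT against 2.58, 10.9 and 2.99 CPM in Cul5 cKO.

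Replicate 1 differed from replicates 2 and 3 in both genotypes, and the members shared in this. Relative to the mean of replicates 2 and 3, replicate 1 went the same way in WT and Cul5 cKO for 24 of 30 members, below in 14 and above in 10. The same share was not counted over all genes, where the deviations of the libraries numbered 1 correlated at 0.37 between genotypes. On the log2 scale, replicate 1 of Hsd17b7 stood at -0.51 (WT) and -0.86 (Cul5 cKO) from the others, that of Insig1 at -0.37 and -0.76, and that of Fasn at -0.40 and -0.32. On the other side, Scd1 stood at 0.89 and 0.45, Fads2 at 1.27 and 0.35, and Tm7sf2 at 0.59 and 0.53. Genes of both branches were thus found on either side. Over all genes the libraries numbered 1 also varied less between genotypes (dispersion 0.018) than WT replicate 1 varied from WT replicate 2 (0.0312), whereas WT replicates 2 and 3 were close (0.0115), as were Cul5 cKO replicates 2 and 3 (0.0112). What sets replicate 1 apart is not given in the labels.

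**Figure D4:**
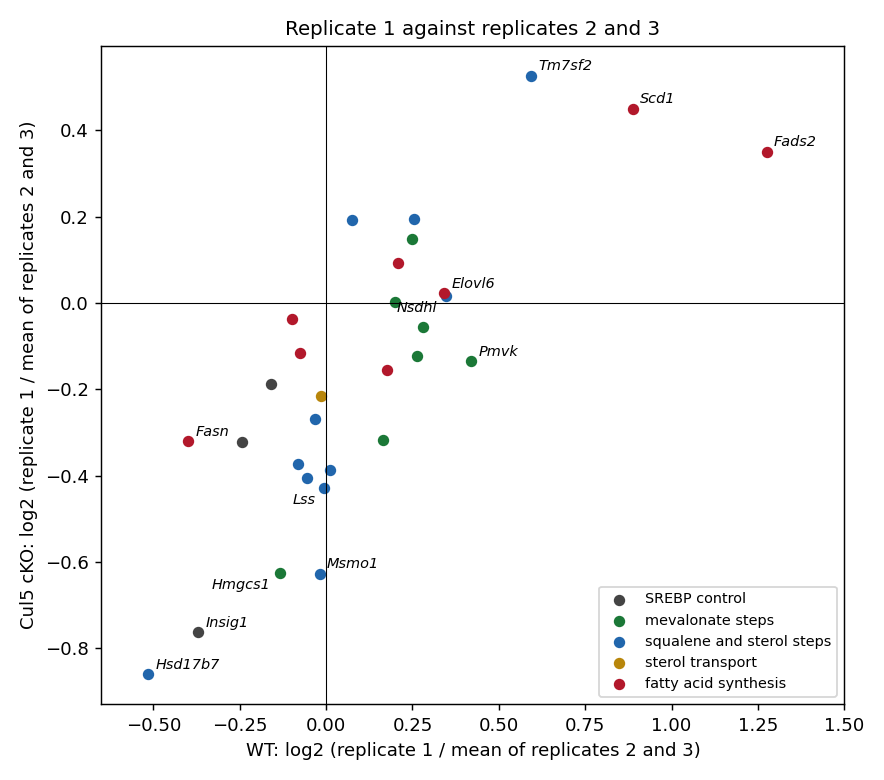
Each point is a member, with log2 of replicate 1 over the mean of replicates 2 and 3 in WT (horizontal) and in Cul5 cKO (vertical). Of the 30, 14 lie below 0 on both axes and 10 above 0 on both, from Hsd17b7 at -0.51 and -0.86 to Fads2 at 1.27 and 0.35.

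Replicates 2 and 3 alone gave 2 WT samples against 2 Cul5 cKO samples. Within them the log2 fold change was above 0 for all 30 members, against 49.3% of all genes, with a median of 0.37 over the members. In that fit edgeR called 7 members higher, Msmo1, Nsdhl, Hsd17b7, Sc5d, Fasn, Elovl6 and Fads2, where 4.38% of all genes were called higher, and 21 of 30 were higher at an unadjusted p under 0.05, where 16.2% of all genes were higher. The log2 fold changes of these 7 were 0.48, 0.56, 0.48, 0.41, 0.30, 0.30 and 1.67. The adjusted p of Fasn, 0.04995, was at the threshold. With all 6 samples and the difference of replicate 1 as a term, edgeR called 5 members, Insig1, Nsdhl, Acly, Fasn and Fads2, all higher (7.17% of all genes were called higher). Nsdhl, Fasn and Fads2 were in both sets. Both fits use the same samples of replicates 2 and 3, so this overlap is not independent support. Replicate 1 alone has 1 sample a genotype and allows no test.

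Several members share sequence with other genes, which bears on how 50 bp reads are divided. In 6 of 30, at least 5% of the 50-base words of their transcripts also occur in another gene, and in 3 of these the other gene held at least 10% as many counts, so their values are uncertain. Acat2 shares 11.2% of its words with Tcp1, which overlaps its end, Fdft1 17.2% with Ctsb, and Tm7sf2 9.87% with Vps51. Transcript shares differed in WT replicate 3, the library of lowest depth. The leading transcript of a member took a median of 92.8%, 91.5% and 83.1% of its counts in WT and 92.7%, 89.6% and 91.6% in Cul5 cKO, and it was at its lowest in WT replicate 3 for 19 of 30 members. Acat2-201 took 84.4%, 73.1% and 0.00% of the counts of Acat2 in WT and 76.6%, 77.1% and 76.0% in Cul5 cKO. Msmo1-201 took 79.2%, 81.6% and 48.8% in WT and 75.7%, 80.5% and 79.4% in Cul5 cKO. TPM, which divides by transcript length, carries these shares into the gene level, and summed counts do not. With WT replicate 3 left out, an alternative chosen after seeing the data, 28 of 30 members were above 0 on log2(TPM + 1), against 24 with it. Over all genes these shares were 42.3% and 41.9%.

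Beyond the group, 55 other genes of lipid metabolism were listed and 51 were tested. Of the 51, 28 had a log2 fold change above 0 (median 0.04), 1 was called by edgeR, and 12 were higher and 3 lower at an unadjusted p under 0.05. Over all genes tested, 48.8% were above 0, 1.03% were called, and 10.9% were higher and 10.4% lower at that threshold. Elovl1 (ENSMUSG00000006390, chr4:118428093-118432953), which lengthens saturated and monounsaturated very long chain fatty acids, was the gene called. It stood at 119, 116 and 102 CPM in WT against 161, 156 and 171 CPM in Cul5 cKO, with no overlap. The log2 fold change of Elovl1 was 0.53 (edgeR adjusted p = 0.0306, SE 0.0773), so Elovl1 rose in Cul5 cKO, though that call was lost when any 1 library other than WT replicate 1 was left out (adjusted p from 0.0565 to 0.158) and on each scale built on TPM or the gene-level table (0.0716 to 0.0838). Among the 5 genes of lowest p were also Acsl3, which activates fatty acids to acyl-CoA, with a log2 fold change of 0.48 (adjusted p = 0.109), and Tmem97, a sterol-regulated membrane protein, at 0.43 (adjusted p = 0.114). For both, every Cul5 cKO sample lay above every WT sample.

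The partners of SREBP outside the group had small fold changes. Scap, the escort of SREBP, measured 149, 180.4 and 168 CPM in WT against 161, 183 and 169.5 CPM in Cul5 cKO. Insig2 gave 17.4, 14.5 and 14.9 CPM against 17.5, 13.2 and 14.8 CPM. Their log2 fold changes, 0.04 (95% interval -0.16 to 0.25) and -0.05 (95% interval -0.37 to 0.28), became -0.01 on log2(TPM + 1) and 0.04 with counts scaled from TPM, respectively.

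By list, the 6 other genes of sterol synthesis had a median log2 fold change of 0.22 with 2 higher and 0 lower at an unadjusted p under 0.05. Over all genes tested, 10.9% were higher and 10.4% lower at that threshold. The 12 tested of other fatty acid synthesis had a median of 0.15 with 4 higher and 1 lower. The 9 genes of acyl-CoA and glycerolipid synthesis had a median of 0.23 with 4 higher and 0 lower. The 4 other SREBP control genes had log2 fold changes from -0.15 to 0.15 with 0 past that threshold either way. The 11 tested of sterol uptake and efflux had a median of -0.09 with 1 higher and 1 lower. The 9 of fatty acid oxidation had a median of -0.05, also with 1 higher and 1 lower. In uptake and efflux and in oxidation the shares higher, 9.09% and 11.1%, were near that of all genes. The 3 lists of synthesis thus had medians above that of all genes (-0.01). The medians of oxidation and of uptake and efflux lay below it, but oxidation lay above it without WT replicate 1 (0.02, against 0.0083 for all genes) and without Cul5 cKO replicate 3 (0.00051, against -0.0021), as did uptake and efflux on log2(TPM + 1) without WT replicate 3 (0.04, against -0.04). Differences between lists were not tested.

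**Figure D5:**
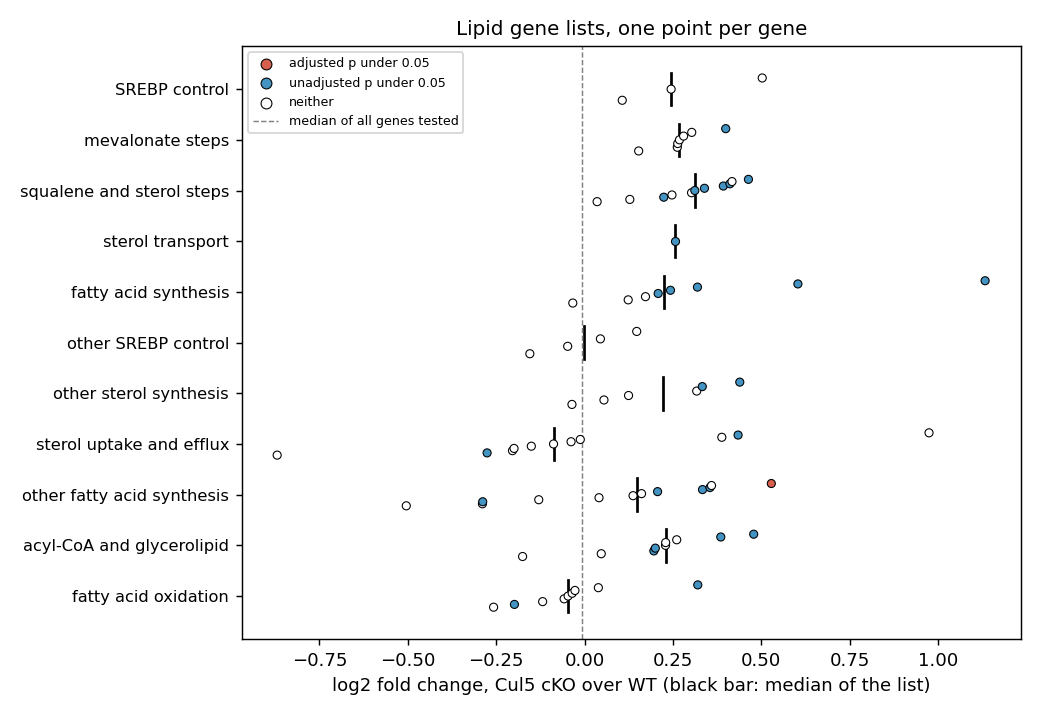
Log2 fold change (Cul5 cKO over WT) of each tested gene by list, the 5 upper lines being the roles within the group and the 6 lower lines the other lipid lists, with a black bar for each median and a dashed line for the median of all genes. Elovl1 (red) is the only gene called at an adjusted p under 0.05, and blue points, 13 in the group and 14 outside it, have an unadjusted p under 0.05. Over all genes tested, 1.03% were called, and 10.9% were higher and 10.4% lower at an unadjusted p under 0.05.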

How the data were processed

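The authors sequenced poly-A RNA of 6 samples (50 bp, single-end) and ran kallisto 0.46.2 (version per the labels) on transcripts of GRCm38, which splits reads shared by several transcripts. They deposited for each sample the estimated counts, not normalized, and TPM, scaled to transcript length. The authors also deposited a gene-level table of log2 CPM after TMM normalization with edgeR 3.34.0; its columns with their own log2 fold changes and p-values were not used.

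Estimated counts were summed by gene with the GENCODE annotation vM21, which matched 97.7% of transcripts, and rounded. In R 4.3.3, edgeR 4.0.16 with its default expression filter, TMM and the quasi-likelihood test compared 3 Cul5 cKO with 3 WT samples without covariates; a gene was called at a Benjamini-Hochberg adjusted p under 0.05 over all 12925 genes tested. The SE of a log2 fold change was taken from the F statistic. Precision was set by a biological coefficient of variation of 16.1% and by depth, from 3944803 to 23454552 counts, where 3 counts equal 0.759 and 0.133 CPM; the fewest counts of a member in a library were 30. The edgeR script was tested on simulated data. Alternatives used DESeq2 1.42.0, limma 3.58.1 on log2 values with pseudocounts of 1 and 0.1 on TPM and on the gene-level table, counts scaled from TPM, library size alone, other filters, libraries thinned to the lowest depth, the replicate number as a block, the difference of replicate 1 as a term, replicates 2 and 3 alone, and each sample left out. The exact permutation test was two-sided. Figures and sequence searches used Python 3.11.15; promoter windows were RefSeq's.

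Members, lists and tests were chosen with earlier results of these data known. The genes named are Cul5, all 30 members, Scap, Insig2, the 5 other lipid genes of lowest p since fewer than 5 were called, and markers of cell types that moved with a library; some genes this rule names are not reported here.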

Additional observations from a re-analysis of the deposited data

How the results depend on the processing

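With libraries thinned to the lowest depth, 10462 genes were tested, against 12925 at full depth. Of these, 109 genes and 0 members were called when thinned, against 133 and 0 at full depth. At an unadjusted p under 0.05, 12 members were higher when thinned (9.48% of all genes), against 13 (10.9%). Over 760 comparisons of 40 named genes with 19 alternatives, 679 kept their direction and their side of the threshold, 35 passed it newly, 10 (all Elovl1) lost it and 36 of 9 genes changed sign; the cause was not tested. The count of members called, 0 with all samples, was 2 with DESeq2, 5 with replicate 1 as a term, 7 with replicates 2 and 3 alone and 0 to 1 with a sample left out, all of them higher. All genes called, 133, were 693 with DESeq2, 228 without a filter, 61 with counts scaled from TPM, 42 in the gene-level table, 27 on log2(TPM + 1), 30 on log2(TPM + 0.1), 1688 with replicate 1 as a term, 1153 with replicates 2 and 3 alone, 2 to 316 with a sample left out and 6 on log2(TPM + 1) without WT replicate 3, an alternative chosen after seeing the data. Other lipid genes called, 1, were 6 with DESeq2, 8 with replicate 1 as a term, 7 with replicates 2 and 3 alone, 0 with counts scaled from TPM, in the gene-level table and on the TPM scales (also without WT replicate 3), and 0 to 1 with a sample left out.

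Signs that changed were those of Srebf1 (-0.043 with counts scaled from TPM, -0.062 in the gene-level table, -0.082 on both TPM scales), Srebf2 (-0.054 scaled, -0.10 on both TPM scales), Ebp (-0.013 in the table, -0.033 on both TPM scales) and Dhcr7 (-0.036 on both). Tm7sf2 was -0.0079 with library size alone, -0.054 scaled, -0.087 in the table, -0.092 on log2(TPM + 1), -0.10 on log2(TPM + 0.1) and -0.074 on log2(TPM + 1) without WT replicate 3. Scd1 was 0.075 in the table, 0.020 with replicate 1 as a term and 0.17 with replicates 2 and 3 alone. Scap was -0.012 on both TPM scales, and Insig2 0.037 scaled and 0.16 on log2(TPM + 1) without WT replicate 3. With 1 sample left out, Mvk ran from -0.0058 to 0.28, Tm7sf2 from -0.16 to 0.29, Scd1 from -0.24 to 0.34, Scap from -0.027 to 0.12 and Insig2 from -0.16 to 0.051, with a change of sign for Mvk without WT replicate 2, for Tm7sf2 without Cul5 cKO replicate 1 or either of WT replicates 2 and 3, and for the others without WT replicate 1 or Cul5 cKO replicate 2.

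Samples of the same number deviated together with correlations of 0.37, 0.206 and 0.0245 for numbers 1, 2 and 3 over all genes, and WT replicate 3 correlated best with Cul5 cKO replicate 2 (0.0914), so the numbers were not taken as pairs. With the replicate number as a block, 3 members were called, all higher, 848 of all genes and 5 other lipid genes, and Scd1 was 0.012.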
